A study of Mus musculus with 2 samples.

Results

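The genes Mir23a, Mir27a and Mir24-2 form a cluster on mouse chromosome 8, and Mir23b, Mir27b and Mir24-1 form its counterpart on chromosome 13. These 6 microRNA (miRNA) genes were chosen by name among the 1973 miRNA genes of the count tables, in which 5 of them have an entry of their own. Mir24-1 has no entry and was read from the opposite-strand count of Mir3074-1, the gene annotated across from it. The study sequenced small RNAs of total RNA, size-selected to under 30 nucleotides, from the hindbrain of B6NCrl mice on the day of birth (age 0 day). It holds 1 group of 2 libraries, replicate 2 from the hindbrain of pup 3 and replicate 1 from that of pup 1, with no treatment or second genotype and with sex not collected. The labels call the pups separate animals but give both the same donor identifier, so a spread between these libraries may be partly technical. No contrast between conditions was possible, and each comparison below is between 2 libraries or between genes inside a library.

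A miRNA is cut from a hairpin precursor as a short strand. It represses messenger RNAs that pair with its seed, bases 2 to 8 from its 5′ end. Clustered precursors are cut from a shared primary transcript, so the genes of a cluster can be made together while their mature products still differ in amount. The miR-23, miR-27 and miR-24 families are known from blood vessels, where they act in endothelial growth and sprouting. They are also known from blood cell development and, for miR-23, from astrocytes and from the maturation of oligodendrocytes.

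The mature strands show why some copies could be told apart in the counts and others could not. RefSeq (build GRCm38.p6) has a hairpin for all 6 genes but no mature miR-23b-3p entry, so the Mir23b hairpin is printed further below. The 5′ strands of miR-23 and miR-27 are left out. The other mature strands of the 3 families are printed with the seed in capitals.
mmu-miR-23a-3p: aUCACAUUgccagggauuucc
mmu-miR-27a-3p: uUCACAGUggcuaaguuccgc
mmu-miR-27b-3p: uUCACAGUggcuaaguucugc
mmu-miR-24-3p: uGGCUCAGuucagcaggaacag
mmu-miR-24-2-5p: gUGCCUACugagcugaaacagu
mmu-miR-24-1-5p: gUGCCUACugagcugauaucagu

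The seeds of miR-23a-3p and miR-27a-3p matched at 6 of 7 bases and differed by U7G, with positions counted from the 5′ end of the miRNA and the miR-23a-3p base first. The seed of miR-24-3p matched neither of them at any of the 7 bases. miR-27a-3p and miR-27b-3p shared their seed and their first 18 bases, and differed by C19U alone. The 5′ arms of the miR-24 genes also shared a seed and agreed over 16 bases before A17U, the first of 5 differences over 22 bases from miR-24-2-5p to miR-24-1-5p. The strand miR-24-3p was the same in both clusters. Among the 1738 mature entries, the seed of miR-27 belonged to miR-27a-3p and miR-27b-3p only. The seed of miR-24-3p was also held by miR-5124b, miR-6369, miR-6410 and miR-6413, whose genes had 0 counts in both pups.

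The hairpins of the miR-23 and miR-24 genes are printed with the longest stretch common to a pair in capitals, because its length set how much of each gene could be counted.
Mir23a: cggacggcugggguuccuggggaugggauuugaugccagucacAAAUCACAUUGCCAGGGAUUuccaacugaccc
Mir23b: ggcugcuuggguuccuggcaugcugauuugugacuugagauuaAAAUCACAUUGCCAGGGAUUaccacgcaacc
Mir24-2: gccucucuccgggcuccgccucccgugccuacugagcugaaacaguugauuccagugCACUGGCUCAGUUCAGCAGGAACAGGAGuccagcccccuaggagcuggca
Mir24-1: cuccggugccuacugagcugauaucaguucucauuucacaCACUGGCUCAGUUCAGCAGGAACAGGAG

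The stretch common to the miR-23 pair was 20 bases long, and so was that of the miR-27 pair. The best placement of miR-23a-3p on the Mir23b hairpin left 1 difference, U19A, after 18 shared bases. A read that began at the 5′ end of miR-23a-3p, miR-27a-3p or miR-27b-3p therefore needed 19 bases to match a single one of the 1005 RefSeq miRNA hairpins. In the miR-24 pair the common stretch was 28 bases and held the whole of miR-24-3p, which occurred in both hairpins. No length of an exact miR-24-3p read told the genes apart. The 5′ arms of the miR-24 genes needed 17 bases. The tables give reads that matched several genomic places to no gene, 39.4% of all reads in pup 3 and 37.9% in pup 1. The counts of Mir24-2 and Mir24-1 therefore leave out exact reads of miR-24-3p and cannot be read as the amount of miR-24. The search covered miRNA hairpins only, not the genome.

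Both clusters lie on the plus strand in the order miR-23, miR-27, miR-24 (coordinates on GRCm38, the assembly of mm10). Mir23a (ENSMUSG00000065611.1) is at chromosome 8, 84208518 to 84208592. Mir27a (ENSMUSG00000065444.1) is at 84208672 to 84208758 and Mir24-2 (ENSMUSG00000065541.1) at 84208815 to 84208921. The 3 precursors fill 404 bases, with gaps of 79 and 56 bases, and no annotated gene on their strand contains them. Mir23b (ENSMUSG00000065599.2) is at chromosome 13, 63300484 to 63300557, in an intron of the protein-coding gene 2010111I01Rik. Mir27b (ENSMUSG00000065475.2) at 63300712 to 63300784 and Mir24-1 (ENSMUSG00000105904.1) at 63301208 to 63301275 overlap exons of the same gene. Fancc, which encodes a Fanconi anaemia protein, runs across the chromosome 13 cluster on the other strand and has an intron there. This cluster spans 792 bases, because 423 bases separate Mir27b from Mir24-1.

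**Figure D1:**
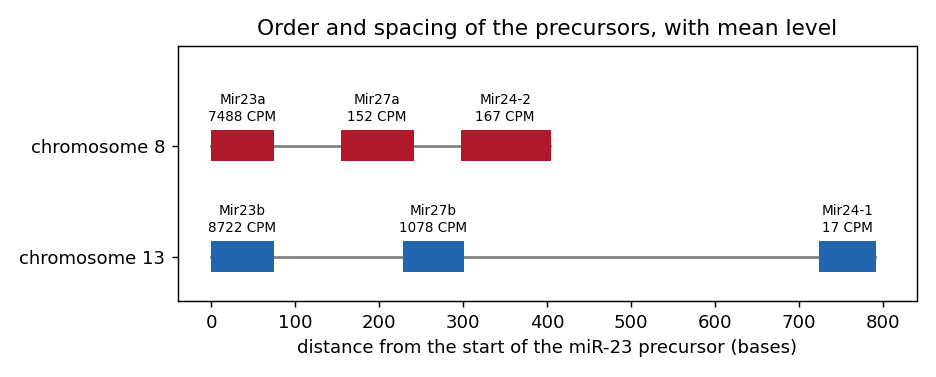
Order and spacing of the 3 precursors of each cluster, drawn to scale as boxes by distance in bases from the start of the miR-23 precursor, with the mean level of each gene over both pups in CPM. The chromosome 8 cluster spans 404 bases and the chromosome 13 cluster 792 bases, and in both the miR-23 gene had the highest count.

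Levels are in CPM, a gene's own-strand count scaled to 1000000 such counts over all miRNA genes in its library. Those counts summed to 6238680 in pup 3 and 4906127 in pup 1. With 0 reads, at most 0.481 CPM in pup 3 or 0.611 CPM in pup 1 would be allowed (3 counts of the total). Such floors and the intervals below cover counting error only. A read spans a mature strand whatever the length of its hairpin, so counts were not divided by hairpin length. Ligation and amplification favour some small RNAs over others, and levels of different genes include that capture.

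The 6 genes together took 1.53% of own-strand counts in pup 3 and 1.99% in pup 1, or 1.76% ± 0.326 (SD, n = 2 pups). Most of these counted reads were of miR-23. Exact reads of miR-24-3p are left out of the counts, so the miR-24 shares may be too low and the other shares too high. The miR-23 pair held 90.4% of the reads of the 6 genes in pup 3 and 93.2% in pup 1, the miR-27 pair 8.27% and 5.98%, and the miR-24 pair 1.29% and 0.852%. The chromosome 8 cluster summed to 7229 CPM in pup 3 against 8383 CPM in pup 1. The chromosome 13 cluster summed to 8090.01 CPM in pup 3 against 11543 CPM in pup 1, so it held more counted reads than the chromosome 8 cluster in both pups.

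Mir23a, known for its part in endothelial cells, had 43031 reads or 6897 CPM in pup 3 and 39633 reads or 8078 CPM in pup 1. It ranked 36 and 30 among all genes in those libraries. Mir23b had 43407 reads or 6958 CPM in pup 3 and 51445 reads or 10486 CPM in pup 1, at ranks 35 and 24. Its level in pup 3 was close to that of Mir23a, while in pup 1 it stood above Mir23a. The means, 7488 ± 835 CPM for Mir23a and 8722 ± 2495 CPM for Mir23b (SD, n = 2 each), differed by less than the spread of Mir23b between the pups.

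Mir27a, whose family is known for curbing fat cell formation and acting in vessel sprouting, had 951 reads or 152.4 CPM in pup 3 and 742 reads or 151 CPM in pup 1. Mir27b had 6954 reads or 1115 CPM in pup 3 and 5107 reads or 1041 CPM in pup 1. All values of Mir27b lay above all values of Mir27a. Mir27a ranked 206 in pup 3 and 219 in pup 1, against ranks 98 and 108 for Mir27b.

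Mir24-2, whose main product miR-24-3p is known to repress cell cycle genes, had 1120 reads or 179.5 CPM in pup 3 and 753 reads or 153 CPM in pup 1. Mir24-1, as read from the opposite strand of Mir3074-1, had 110 reads or 17.6 CPM in pup 3 and 80 reads or 16.3 CPM in pup 1. The counting intervals of Mir24-1 were 14.5 to 21.3 CPM and 12.9 to 20.3 CPM (exact Poisson, 95%), so the pups did not differ beyond counting error. In mean level of counted reads the 6 genes thus ran from Mir23b and Mir23a, which overlapped, through Mir27b to Mir24-2, Mir27a and Mir24-1. Exact reads of miR-24-3p are not in these counts, so the places of Mir24-2 and Mir24-1 hold for their other reads only. The means of Mir24-2 and Mir27a, 167 ± 18.4 and 152 ± 0.846 CPM (SD, n = 2 each), differed by less than the spread of Mir24-2.

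**Figure D2:**
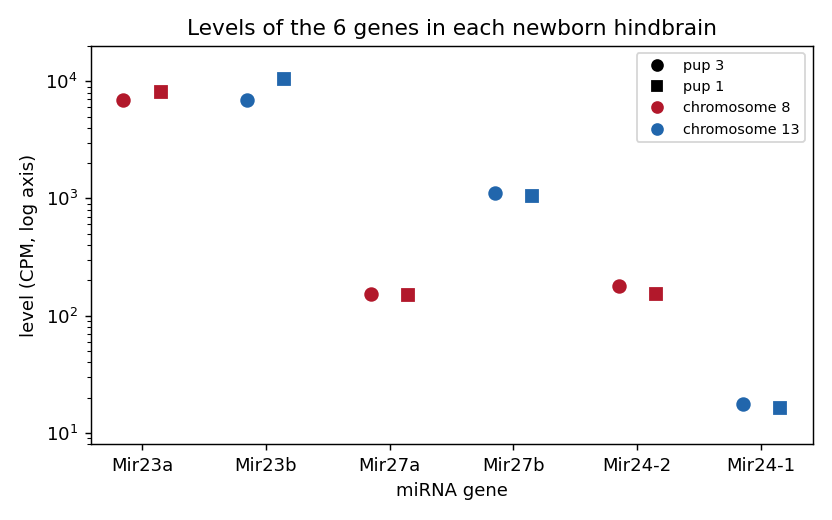
Level of each of the 6 genes in CPM (log axis) in pup 3 (circles) and pup 1 (squares), with chromosome 8 genes in red and chromosome 13 genes in blue. The miR-23 genes sit between 6897 and 10486 CPM, Mir27b at 1041 to 1115 CPM, Mir27a and Mir24-2 between 151 and 179.5 CPM, and Mir24-1 lowest, at 16.3 to 17.6 CPM. The values of Mir24-2 and Mir24-1 leave out exact reads of miR-24-3p.

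The reading of Mir24-1 rests on the strand of the Mir3074-1 entry. Release M21 places Mir3074-1 (ENSMUSG00000092741.2) on the minus strand of chromosome 13, at 63301199 to 63301283. The tables list it as version 1 of that gene from release M4, whose strand is not given in the sources used here. Mir3074-1 had 566 own-strand and 110 opposite-strand reads in pup 3, and 525 and 80 in pup 1. Opposite-strand reads were thus 16.3% of its reads in pup 3 (exact Clopper-Pearson 95% interval 13.6 to 19.3) and 13.2% in pup 1 (10.6 to 16.2). Of the 328 entries with 100 or more reads on either strand, 315 had under 2% on the opposite strand and 11 had over 98%. Only Mir3074-1 and Mir486 lay between. The chromosome 8 partner Mir3074-2 has no entry, and its strand held 0 reads in pup 3 and 2 in pup 1 across Mir24-2. If release M4 had the Mir3074-1 entry on the plus strand, the 566 and 525 reads would belong to Mir24-1 instead, at 90.7 CPM in pup 3 against 107 CPM in pup 1. The only mature strand listed for Mir3074-1, miR-3074-5p, occurs in 2 hairpins, so exact reads of it count for no gene. No 3′ strand is listed for Mir3074-1, while that of Mir3074-2, miR-3074-2-3p, matches a single hairpin from 9 bases on. Whether a 3′ strand of Mir3074-1 gave own-strand reads was not tested. On the plus strand, miR-24-1-5p matches a single hairpin from 17 bases on. Of the 328 entries, 45 had another version than in M21, and 1 of these was mostly opposite-strand. Which reading holds was not tested. Elsewhere among the members, opposite-strand reads were 1 for Mir27b in pup 3 and 0 in all other cases.

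Inside a library, the share of a pair's reads that came from the chromosome 8 copy needs no scaling between pups. In the miR-23 pair Mir23a held 49.8% of the reads in pup 3 (95% interval 49.4 to 50.1) and 43.5% in pup 1 (43.2 to 43.8). The copies were at parity in pup 3 within counting error, and Mir23b was 1.30 times Mir23a in pup 1. In the miR-27 pair Mir27a held 12.0% in pup 3 (11.3 to 12.8) and 12.7% in pup 1 (11.8 to 13.6). Mir27b thus had 7.31 reads for each read of Mir27a in pup 3 and 6.88 in pup 1. In the miR-24 pair Mir24-2 held 91.1% in pup 3 (89.3 to 92.6) and 90.4% in pup 1 (88.2 to 92.3), or 10.2 and 9.41 reads for each read of Mir24-1. With Mir24-1 taken from the own strand of the Mir3074-1 entry, Mir24-2 held 66.4% in pup 3 (64.1 to 68.7) and 58.9% in pup 1 (56.2 to 61.6). The chromosome 8 copy was the larger of the miR-24 pair under both readings and the smaller of the miR-27 pair. For miR-24 this concerns reads other than miR-24-3p.

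**Figure D3:**
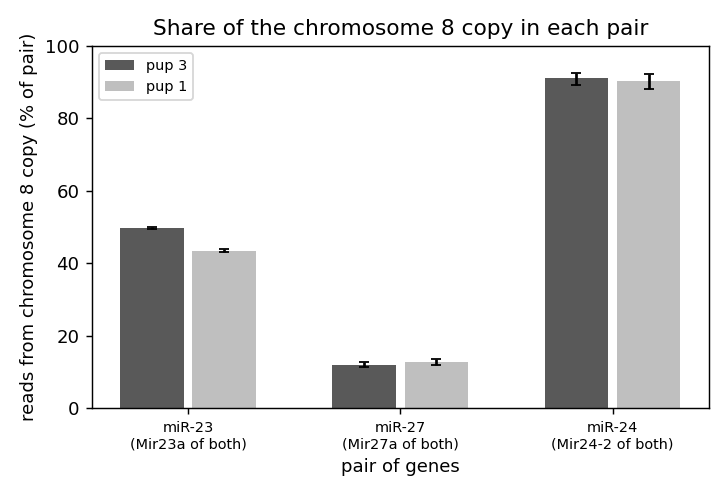
Share of each pair's reads that came from the chromosome 8 copy, in percent, in pup 3 (dark bars) and pup 1 (light bars), with exact 95% intervals of the counts. The miR-23 share was 49.8% in pup 3 and 43.5% in pup 1, the miR-27 shares were 12.0% and 12.7%, and the miR-24 shares, with Mir24-1 read from the opposite strand of Mir3074-1, were 91.1% and 90.4%.

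The log2 ratio of the chromosome 8 copy to the chromosome 13 copy was higher in pup 3 by 0.36 for miR-23, with a counting error (SE) of 0.01. For miR-27 it differed by -0.09 (SE 0.08) and for miR-24 by 0.11 (SE 0.22), pup 3 minus pup 1. With Mir24-1 taken from the own strand of the Mir3074-1 entry, the miR-24 ratio was higher in pup 3 by 0.46 (SE 0.11). The intervals of the share did not overlap between the pups for miR-23, and for miR-24 they overlapped only under the opposite-strand reading. No test over the 3 pairs was made, and these errors hold no spread between animals.

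The precursors of a cluster were far from equal in counts. Exact reads of miR-24-3p are missing from these counts, so the shares below are of counted reads only. On chromosome 8, Mir23a made up 95.4% of the cluster's reads in pup 3 and 96.4% in pup 1, Mir27a 2.11% and 1.80%, and Mir24-2 2.48% and 1.83%. On chromosome 13, Mir23b made up 86.0% in pup 3 and 90.8% in pup 1, and Mir27b 13.8% and 9.02%. Mir24-1 was 0.218% of that cluster in pup 3 and 0.141% in pup 1, or 1.11% and 0.920% in the other reading of its strand. There were 45.2 reads of Mir23a for each read of Mir27a in pup 3 and 53.4 in pup 1. On chromosome 13 there were 6.24 reads of Mir23b for each read of Mir27b in pup 3 and 10.1 in pup 1. The miR-27 gene was therefore a larger part of the chromosome 13 cluster than of the chromosome 8 cluster in both pups. The miR-23 gene was a smaller part of its cluster in pup 3 than in pup 1 on both chromosomes.

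Each gene was then compared between the 2 libraries by an exact two-sided binomial test of its reads, Benjamini-Hochberg adjusted over 509 tested genes. The differences are on library sizes scaled by edgeR's TMM, with 1 CPM added. At an adjusted p under 0.05 and any fold, 4 of the 6 genes passed, against 47.5% of all tested genes, 2 of them higher and 2 lower in pup 3, where 23.8% of tested genes passed in each direction. None of the 6 reached a 2-fold difference, against 6.68% called at that size. The 34 genes called at 2-fold were 5 higher in pup 3 (0.982% of tested genes) and 29 lower (5.7%). The median log2 difference of the 6 genes was 0.19, and 0.03 in the other reading of Mir24-1, beside -0.02 over all tested genes. Both libraries are of 1 condition, and these p-values measure counting error alone.

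Mir23b had the largest difference of the 6, with log2 -0.45 (counting SE 0.01), or 1.37-fold lower in pup 3 (exact binomial test, adjusted p returned as 0). In size this exceeded 71.3% of the genes detected in both pups at 2 CPM or more. Mir24-2 was higher in pup 3 by 0.36 on the log2 scale (SE 0.07; exact binomial test, adjusted p = 2.38e-07), which exceeded 63.2% of them, and by 0.22 on library totals (exact binomial test, adjusted p = 0.00212). Mir27b was higher in pup 3 by 0.24 (SE 0.03; exact binomial test, adjusted p = 1.75e-18), and by 0.10 on library totals (exact binomial test, adjusted p = 0.000526). Mir23a was lower in pup 3 by a log2 difference of -0.09 (SE 0.01; exact binomial test, adjusted p = 2.10e-18), but with DESeq2's size factors its difference was 0.00095 and the exact binomial test gave an adjusted p of 0.977, and on library totals it was -0.23 (exact binomial test, adjusted p = 1.15e-112). Mir27a differed by 0.15 (SE 0.07, exact binomial test, adjusted p = 0.0682). With DESeq2's size factors it differed by 0.24 and passed an adjusted p under 0.05, without reaching 2-fold. Mir24-1 differed by 0.24 (SE 0.21; exact binomial test, adjusted p = 0.362), or by -0.10 in the other reading of its strand. All 6 lay within the 90th percentile of detected genes, an absolute log2 difference of 0.81.

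**Figure D4:**
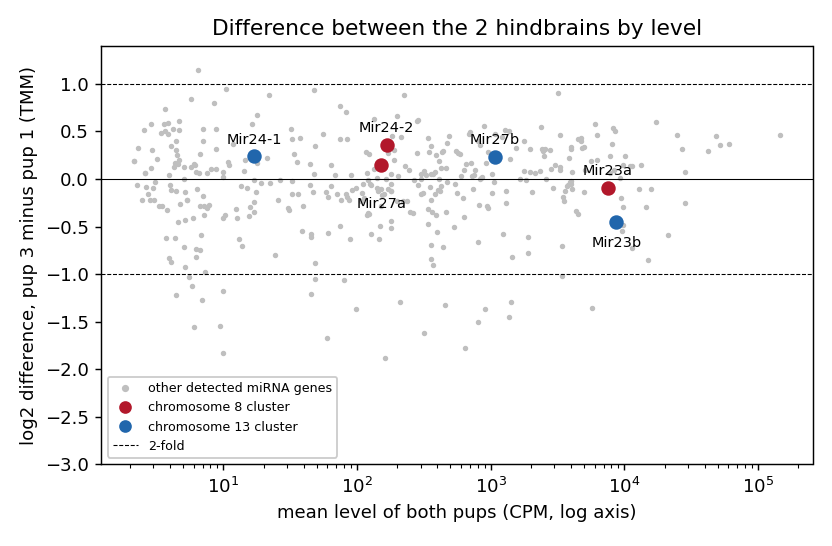
Log2 difference between the hindbrains, pup 3 minus pup 1 on TMM scaling, against mean level in CPM (log axis) for detected miRNA genes (grey), the chromosome 8 genes (red) and the chromosome 13 genes (blue). All 6 genes lie inside the dashed lines of a 2-fold difference, with Mir23b lowest at -0.45 and Mir24-2 highest at 0.36.

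On the plane of both pups' log2(CPM + 1), the gene most like Mir23a was Mirlet7d, at 7622 CPM in pup 3 against 8050.3 CPM in pup 1, a distance of 0.14. Mir30a was most like Mir23b, at 7344 CPM in pup 3 against 11789 CPM in pup 1. Mir532 was most like Mir27b, Mir192 most like Mir27a, Mir216a most like Mir24-2 and Mir1930 most like Mir24-1, at distances of 0.08 to 0.18. Likeness over 2 libraries says only that the levels were close. In the order of mean CPM, Mir23b stood between Mir434 and Mir322, Mir23a between Mir369 and Mir1298, and Mir27b between Mir188 and Mir350. Mir24-2 stood between Mir218-2 and Mir206, and Mir27a between Mir412 and Mir146.

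Near the chromosome 8 cluster, the closest other miRNA genes with an entry were Mir181c and Mir181d, on the minus strand 29.6 and 29.7 kb away within Nanos3. Mir181c had 11029 CPM in pup 3 against 11021 CPM in pup 1, above both miR-23 genes in each pup. Mir181d had 3689 CPM in pup 3 against 5239.8 CPM in pup 1. The entry Gm25110, 51.6 kb away on the plus strand, had 0 counts in both pups. Apart from Mir3074-1, no other miRNA gene lies within 100 kb of the chromosome 13 cluster.

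Vessel genes gave a mixed picture beside the miR-23 genes. Mir126a, the endothelial miRNA of Egfl7, had 55787 CPM in pup 3 against 47819 CPM in pup 1, higher in pup 3 by 0.36 on the log2 scale (exact binomial test, adjusted p returned as 0), while Mir23b was lower in pup 3. Genes of mural cells and connective tissue were detected for 9 of 11, and their list summed to 21183 CPM in pup 3 against 19197 CPM in pup 1. Of its 9 tested genes, 3 passed as higher in pup 3 and 2 as lower, near the 23.8% of all tested genes in each direction, with a median log2 difference of -0.09. Mir143, a smooth muscle miRNA, had 9362 CPM in pup 3 against 7121 CPM in pup 1. Next in mean CPM were Mir140, at 5726 CPM in pup 3 against 5506 CPM in pup 1, and Mir21a, at 5008 against 5148 CPM. Mir145a went the other way from Mir143, at 326 CPM in pup 3 against 382 CPM in pup 1 (exact binomial test, adjusted p = 0.106). Mir221, which acts in endothelial and smooth muscle growth, had 269 CPM in pup 3 against 411 CPM in pup 1 (named after its values were seen). In whole tissue, fewer cells of a type and less RNA per cell cannot be told apart.

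The blood lists were low over the genes with an entry. The erythroid list summed to 308 CPM in pup 3 against 498 CPM in pup 1, with all 3 genes with an entry detected. Its genes did not move together, since Mir451a differed by -0.70 and Mir144 by 0.88 on the log2 scale (exact binomial test, adjusted p = 4.16e-50 and 4.17e-06), and Mir486 by 0.22 (exact binomial test, adjusted p = 0.361). The leukocyte and microglia list summed to 730.1 CPM in pup 3 against 1019 CPM in pup 1, with 5 of 6 genes with an entry detected. The other, Mir142b, had no own-strand read, and opposite-strand reads were left out of the lists. Mir142 has no entry, so the sum does not include it. Of its 5 tested genes, 0 passed as higher in pup 3 and 3 as lower, where 23.8% of all tested genes passed in each direction. Both sums were lower in pup 3, the erythroid one through Mir451a, and their part in the difference of Mir23b was not tested. List sums are in CPM and so rest on library totals, while passing genes are on TMM scaling. On library totals the median log2 difference of all tested genes was -0.15, pup 3 minus pup 1. A lower sum in pup 3 is therefore partly shared by most genes. The neuronal list summed to 18948 CPM in pup 3 against 20073.5 CPM in pup 1, with 7 of 10 genes detected and no entry for Mir9-1. Of its 10 tested genes, 2 passed as higher in pup 3 and 5 as lower. Among them 2 were called at 2-fold, against 6.68% of all tested genes. The choroid plexus and ciliated cell list summed to 17212 and 19044 CPM. Of its 7 tested genes, 1 passed as higher in pup 3 and 2 as lower. The oligodendrocyte list summed to 1649 CPM in pup 3 against 1776 CPM in pup 1, and 0 of its 3 tested genes passed in either direction. The striated muscle list summed to 208 and 247 CPM, with 3 of its 8 genes at 0 counts in both. Of its 5 tested genes, 0 passed as higher in pup 3 and 1 as lower. Reads that match several places count for no gene, so low or 0 counts in these lists need not mean absence. The Hox cluster genes were detected for 5 of 6, with Mir10a at 24602 CPM in pup 3 against 32189 CPM in pup 1. Mir10b had 10051 CPM in pup 3 against 19914.5 CPM in pup 1. The sum of the Hox cluster genes was 34978 CPM in pup 3 against 52557 CPM in pup 1, also lower in pup 3. Of the 5 tested Hox cluster genes, 0 passed as higher in pup 3 and 4 as lower. The share of all tested genes to set beside each such list count was 23.8% in each direction.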

How the data were processed

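MicroRNA-seq was measured in 2 libraries of 1 group. The authors deposited whole-number read counts per miRNA gene, 1 table per library, not normalized or pooled. Per the text file that accompanies each deposited table, reads were placed on mm10 with annotation M4. Which aligner and counting program were used is not given in the sources used here. Reads of no gene (in pup 3 13.9% did not map, 39.4% matched several places and 1.59% fell in no gene; in pup 1 17.7%, 37.9% and 2.66%) stayed out of totals and tests. Column 3 (own strand) was used, and column 4 of Mir3074-1 for Mir24-1, which was added to the tested genes but not to totals. IDs were matched without version to GENCODE M21 (1894 of 1973).

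Scaling used TMM (edgeR 4.0.16) or, as an alternative, DESeq2 1.42.0 size factors, in R 4.3.3. The ratio of TMM effective sizes was 1.16 (pup 3 over pup 1). Genes with 10 or more counts in sum were tested with an exact binomial test (scipy 1.17.1), because 1 group leaves no residual for a count model. Detection was 2 CPM in both pups. The test was checked on simulated data. Members and lists were chosen with earlier results of these data known. Named genes are the members, miRNA genes within 100 kb, neighbours in mean CPM and the most alike gene per member. Up to 4 genes per marker list were also named, with Mir221 and some list genes without an entry or a read besides. Other settings, listed with their effect in the closing section, covered scaling, count minimum, pseudocount, strand, denominator and leaving out a replicate.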

Additional observations from a re-analysis of the deposited data

Results flagged for a closer look

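Mir3074-1 had 566 own-strand reads in pup 3 and 525 in pup 1, on the strand opposite to Mir24-1 in release M21 and above the 3 counts that a count of 0 allows. These reads belong to no member under the reading used and enter none of its values. Which strand release M4 gave this entry was not tested.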

How the results depend on the processing

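No paired analysis was possible because both libraries form 1 group. Leaving out a replicate gives a single library, so the counts of called genes and the log2 differences have no such value. The summed level of the 6 genes was 17623 CPM, and 15319 and 19926 CPM without replicate 1 and without replicate 2. Scaled to all reads in the table it was 7369 per 1000000 reads, a larger denominator by construction. The count of called genes was 34, and 18, all lower in pup 3, with 100 or more counts in sum, where 318 genes were tested. It was 33 with DESeq2 size factors and 42 on library totals, which shifted the median log2 difference of all tested genes by -0.13 from TMM. The Mir23a log2 difference reversed to 0.00095 with DESeq2 size factors, which gave Mir27a 0.24 (exact binomial test, adjusted p = 0.00164). Taking Mir24-1 from the own strand of the Mir3074-1 entry, chosen after seeing the data, reversed its log2 difference to -0.10, moved its mean level to 98.9 CPM and moved the mean share of Mir24-2 in the miR-24 pair to 62.7%, from 90.7%. The Mir27a mean level was 147 CPM on counts of either strand, whose totals are larger. The other 16 log2 differences, 29 levels or shares and 3 counts of called genes kept their direction and side of the threshold, or moved by less than the spread between pups. With 2 libraries, a value without a replicate always lies within that spread, so leaving out a replicate could not fail. The pseudocount enters neither the p-value nor the sign of a difference, so that setting could not fail either. Neither setting is a sign of stability. Depth limits Mir24-1 most.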
